A study of Mus musculus with 4 samples.

Results

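Collagens are the main structural proteins of connective tissue, and the report concerns the 43 collagen genes in the RNA profiles of mouse colon, chosen by their gene symbol (Col, a number, the letter a and a second number) out of 23074 gene symbols. They were placed in 3 groups by the kind of assembly their chains form: 11 fibrillar, 8 basement membrane and 24 other collagens. The samples were whole pieces of colon, 2 cm long and taken next to the caecum, from mice 6 weeks old of mixed strain, so epithelium and wall were sequenced together. The 2 controls were Nkx2.2flox/+ mice with no Cre named, and the 2 mutants were Nkx2.2flox/flox; Villin-Cre/+ mice, in which the Villin promoter drives Cre recombinase in the gut epithelium, while the cells of the wall keep the floxed alleles. Every one of the 4 mice therefore carried at least 1 floxed allele of Nkx2.2 (listed as Nkx2-2), a homeodomain transcription factor. Nothing in the labels says how the mice of a group were related, and p-values measure only the spread between these libraries.

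A collagen molecule is a triple helix of chains, which come from different genes or are copies of the chain of the same gene. Fibrillar collagens line up into the cross-linked fibers that give the gut wall its tensile strength. Type IV collagen forms the sheet-like network of basement membranes under the epithelium and around smooth muscle and vessels, and type VI forms beaded filaments between fibrils and basement membranes. In the gut most fibrillar collagen is made by fibroblasts and smooth muscle cells, and basement membrane chains are made by mesenchymal as well as epithelial and endothelial cells. The comparison therefore asks how RNA of the wall stood in mice whose labelled deletion lies in the epithelium.

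The sequences just upstream of a few members show how their start regions are built, and they are printed because the type IV genes lie in head-to-head pairs and because Col3a1 and Col1a1 are genes of the main fibrillar collagens. All were read from mm9, 5′ to 3′ on the strand named, and end at the start given for the gene or, where an annotated exon lies there, just upstream of that exon. Capitals mark exact matches, on either strand, to 3 short promoter words. The word for the TATA box is TATAAA. The word for the CCAAT box is its own name, and none of the words was searched with mismatches. The word for the GC box is GGGCGG. A match is a description of letters, not of a bound factor. The windows are chr1:45368233-45368382 (plus strand) for Col3a1, chr11:94797388-94797537 (plus strand, ending 46 bases before the listed start) for Col1a1, chrX:137909778-137909927 (plus strand, ending 34 bases before the listed start) for Col4a5 and chrX:137908620-137908769 (minus strand) for Col4a6. The last is the whole gap between the starts of Col4a4 and Col4a3, chr1:82583425-82583495, written on the plus strand.
Col3a1: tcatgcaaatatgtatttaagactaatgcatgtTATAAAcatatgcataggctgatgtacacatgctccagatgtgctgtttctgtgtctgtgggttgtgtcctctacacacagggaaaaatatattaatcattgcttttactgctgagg
Col1a1: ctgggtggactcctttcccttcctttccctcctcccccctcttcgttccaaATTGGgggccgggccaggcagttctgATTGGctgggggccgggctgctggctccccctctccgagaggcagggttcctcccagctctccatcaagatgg
Col4a5: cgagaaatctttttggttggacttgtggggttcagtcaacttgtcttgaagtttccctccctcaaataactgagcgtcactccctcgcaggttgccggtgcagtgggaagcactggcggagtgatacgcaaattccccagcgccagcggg
Col4a6: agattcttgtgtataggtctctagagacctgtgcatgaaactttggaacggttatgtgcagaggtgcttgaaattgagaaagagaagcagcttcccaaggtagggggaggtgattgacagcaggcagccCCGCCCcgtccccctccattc
Col4a4-Col4a3: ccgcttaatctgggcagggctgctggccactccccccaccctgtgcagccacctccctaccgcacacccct

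The printed Col3a1 window holds 1 TATA box. The Col1a1 window holds 2 CCAAT boxes, both on the opposite strand, where the letters read ATTGG. The Col4a6 window holds 1 GC box, also on the opposite strand (CCGCCC), and the Col4a5 window and the Col4a4-Col4a3 gap hold none of the 3 words. Over 250 bases upstream of each listed start, the TATA box word was found in 7 of 43 collagens (16.3%) against 11.7% of 21829 genes. The CCAAT word was found in 14 of 43 (32.6%) against 35.3%, and the GC box word in 26 of 43 (60.5%) against 44.2%. Among the 25 collagens with enough signal to be tested, the TATA box word lay upstream of Col3a1, Col1a1, Col1a2 and Col14a1. In these longer windows Col4a5 held the CCAAT and GC box words. The printed windows of Col1a1 and Col4a5 are shorter and end before the listed start, so they do not cover all of these bases.

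The 6 type IV genes sit in 3 divergent pairs. Col4a1 and Col4a2 on chromosome 8 start 2 bases apart, Col4a4 and Col4a3 on chromosome 1 start 71 bases apart, and Col4a6 and Col4a5 on the X chromosome start 1342 bases apart. Levels are given as FPKM, fragments per kilobase of transcript scaled to the mapped fragments of the library, a scale corrected for transcript length, so that levels of different genes can be set side by side. Averaged over the 4 libraries, Col4a1 and Col4a2 stood at 21.4 and 13.4 FPKM, Col4a6 and Col4a5 at 1.42 and 4.72 FPKM, and Col4a4 and Col4a3 at 0.0755 and 0.106 FPKM. The pair expressed most in the colon had the closest starts, but the next closest pair, known chiefly from kidney, lung and inner ear, was close to 0.

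Some facts of the libraries bear on every value below. Nkx2-2 itself, the targeted gene, stood at 0.724 and 0.609 FPKM in the controls and 0.125 and 0.351 in the mutants, so the groups did not overlap. Its mean lies under the filter of 0.5 FPKM used for all other genes, and in a separate limma fit with this gene added its log2 change was -0.68 (adjusted p = 0.825), which did not pass the test. Which exons are floxed is not given in the labels, so RNA that lacks the deleted part could still count. Depth was judged from the deposited read coverage of transcripts and is given relative to control 1. By this measure mutant 1, at 0.464, is the shallowest library, while control 2 stood at 1.13 and mutant 2 at 1.03. Over the 13997 genes tested, those averaging 0.5 FPKM or more, the log2 change from control to mutant had a median of -0.17 on the deposited scale, and 82.6% of them lay below 0. After each library was rescaled by the median ratio of its genes, 14013 genes passed the same filter, with a median of 0.0039 and 49.1% below 0. Changes are therefore also given relative to that median. The B cell list stood apart in control 1, with 8 of 8 markers highest there and a summed level of 141.3 FPKM against 10.3 in control 2 and 12.3 to 15.1 in the mutants.

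No collagen passed the test between mutant and control. Of the 43, 25 had a mean of at least 0.5 FPKM and were tested, 7 fibrillar, 6 basement membrane and 12 other. At an adjusted p under 0.05, from limma on log2(FPKM + 0.5), 0 of 25 were called against 0.0643% of all tested genes. At an unadjusted p under 0.05 there were also 0 of 25, against 4.82% of all genes, and the authors' deposited table called 0 collagens against 0.0384% of its genes. The smallest limma p of a collagen was 0.0938, with an adjusted p of 0.825, for Col12a1. For 23 of the 25 the 95% interval of the log2 change lay within 1 unit, a 2-fold change, in either direction. The exceptions were Col8a1 and Col8a2, the chains of type VIII collagen. Over all tested genes the interval lay within those bounds for 11709 of 13997.

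The signs of the 25 changes followed the scaling. On the deposited scale 20 lay below 0 (80.0%, against 82.6% of all genes), and after rescaling 12 did (48.0%, against 49.1%). Their median log2 change was -0.17, the same as that of all genes to 2 decimals. It was -0.11 for the fibrillar genes, -0.14 for the basement membrane genes and -0.22 for the others, or 0.06, 0.02 and -0.05 relative to all genes. After rescaling the same medians were 0.08, 0.03 and -0.06.

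**Figure D1:**
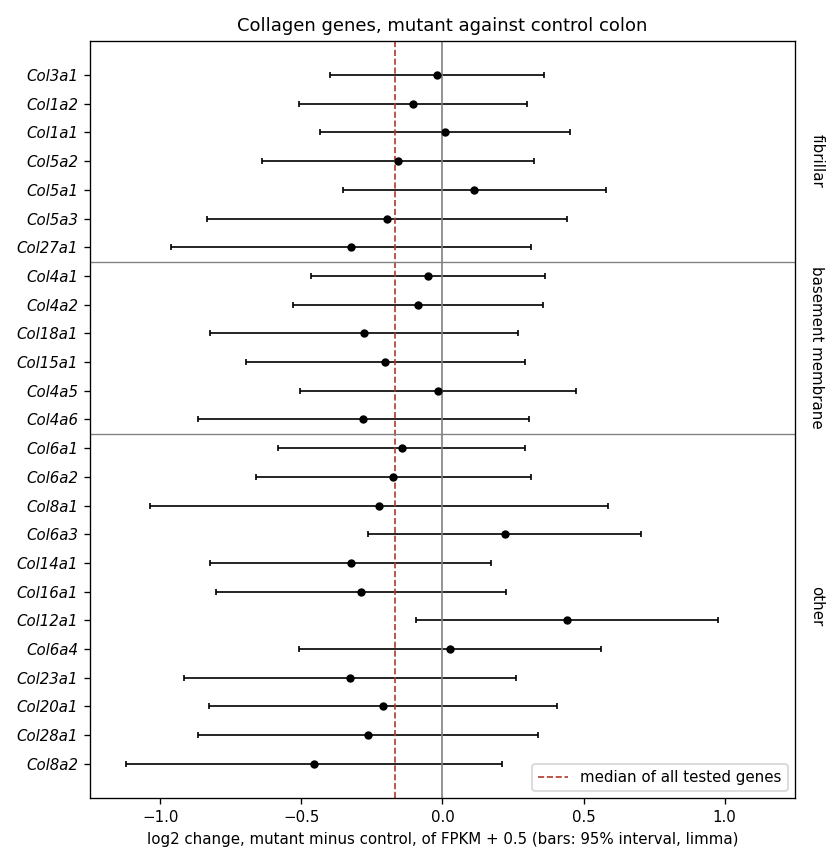
Each row is 1 tested collagen, with the log2 change of mutant against control as a point and its 95% limma interval as a bar. The broken line is the median of all tested genes (-0.17). Every interval crosses 0, and those of Col8a1 and Col8a2 are the ones that reach beyond 1 unit.

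The 2 highest collagen levels of the colon were those of the fibrillar genes Col3a1 and Col1a2. Col3a1, the only chain gene of type III collagen (chr1:45368383-45406551), stood at 104 and 97.8 FPKM in the controls and 100.4 and 98.5 in the mutants. Its group means were 101 ± 4.34 FPKM (SD, n = 2) and 99.5 ± 1.35 (SD, n = 2), and the log2 change was -0.02 (95% interval -0.40 to 0.36). The mutants lay inside the range of the controls. The value rests on 3763 to 8909 fragments per library, as implied by the width of the deposited interval around each FPKM.

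Col1a2, one of the chain genes of type I collagen (chr6:4455697-4491543), stood at 45.8 and 41.1 FPKM in the controls and 41.3 and 39.3 in the mutants. Its log2 change was -0.11 (95% interval -0.51 to 0.30), with overlapping groups. Its partner Col1a1 (chr11:94797584-94813170) stood at 30.0 and 26.6 FPKM in the controls and 31.5 and 25.7 in the mutants. Mutant 1 was the highest of the 4 for Col1a1 and mutant 2 the lowest, so the mutants enclosed the controls, and the log2 change was 0.01 (95% interval -0.43 to 0.45). After rescaling, the log2 changes of Col3a1, Col1a2 and Col1a1 were 0.16, 0.08 and 0.19, which turned the sign of Col3a1 and Col1a2.

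Type V collagen co-assembles with type I and limits the width of its fibrils, and its chain genes were less abundant. Col5a2 stood at 8.66 and 8.50 FPKM in the controls and 6.78 and 8.61 in the mutants, with mutant 1 alone below the others. Col5a1 stood at 5.77 and 5.35 FPKM in the controls and 6.00 and 6.10 in the mutants, so both mutants were above both controls, by 0.11 on the log2 scale (95% interval -0.35 to 0.58). Col5a3 stood at 1.95 and 1.24 FPKM in the controls and 1.34 and 1.27 in the mutants. Control 1 was the highest of the 4 for Col5a3, and the other libraries lay close together. Col27a1, the gene of a fibrillar collagen known best from cartilage, stood at 1.59 and 1.08 FPKM in the controls and 0.905 and 1.00 in the mutants, both mutants below both controls (log2 change -0.32, 95% interval -0.96 to 0.31).

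**Figure D2:**
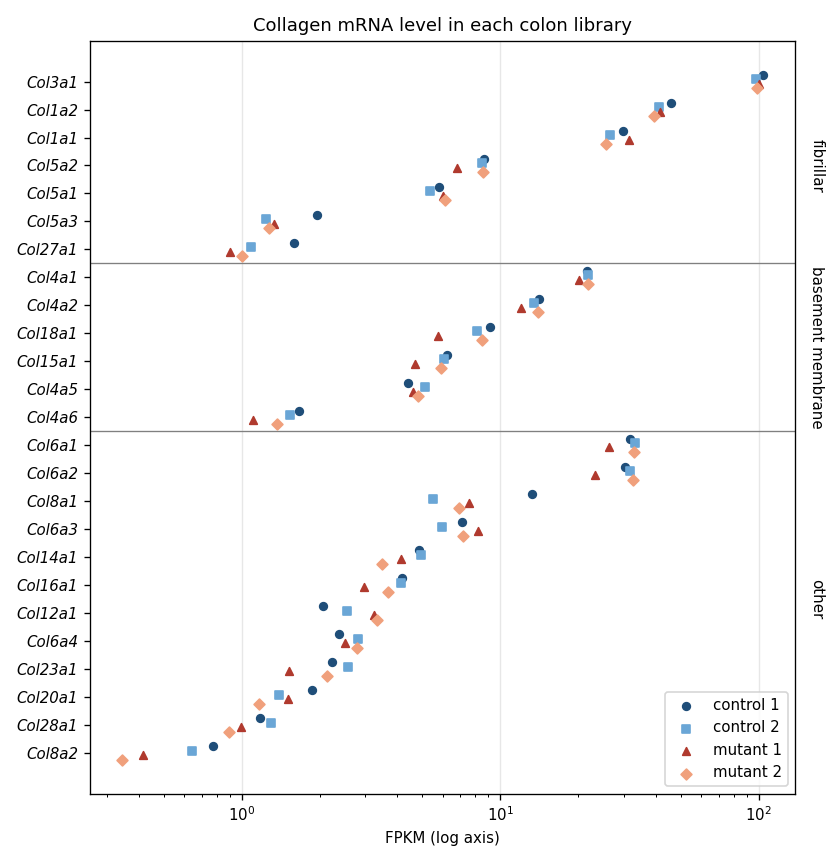
FPKM of the 25 tested collagens in each of the 4 libraries on a log axis, in the order of their mean level and grouped as fibrillar, basement membrane and other. Col3a1 tops the order at 97.8 to 104.0 FPKM, and controls and mutants lie close together for most genes.

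Among the basement membrane genes, Col4a1 (chr8:11198423-11312826) stood at 21.6 and 21.9 FPKM in the controls and 20.2 and 21.8 in the mutants. Col4a2 (chr8:11312829-11449287) stood at 14.1 and 13.4 FPKM in the controls and 12.0 and 13.9 in the mutants. Together these genes encode the common type IV molecule found in nearly all basement membranes. Their log2 changes were -0.05 (95% interval -0.47 to 0.36) and -0.09 (-0.53 to 0.36). Mutant 1 was the lowest library for both genes, and mutant 2 lay within the control range. After rescaling the changes were 0.13 and 0.09, with both mutants above both controls for each gene.

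Col4a5 and Col4a6 encode the chains of the type IV network found around smooth muscle, among other places. Col4a5 stood at 4.39 and 5.13 FPKM in the controls and 4.59 and 4.79 in the mutants, so the mutants lay between the controls (log2 change -0.02, 95% interval -0.51 to 0.47). Col4a6 stood at 1.67 and 1.54 FPKM in the controls and 1.11 and 1.37 in the mutants, both mutants below both controls (log2 change -0.28, 95% interval -0.87 to 0.31). The pair of starts 1342 bases apart thus held 1 gene whose groups overlapped and 1 whose groups did not, on the deposited scale and after rescaling.

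Col18a1 and Col15a1 encode collagens with many breaks in their helix that lie at basement membranes, and the end of the type XVIII chain is released as endostatin. Col18a1 stood at 9.11 and 8.15 FPKM in the controls and 5.76 and 8.54 in the mutants. Mutant 1 was far below the other libraries, and mutant 2 lay between the controls. Without mutant 1 the log2 change of Col18a1 was -0.01 instead of -0.28. Col15a1 stood at 6.23 and 6.04 FPKM in the controls and 4.70 and 5.90 in the mutants. Here too mutant 1 was the lowest, and without it the change was -0.05 instead of -0.20. All 6 tested basement membrane genes lay below 0 on the deposited scale and 3 did after rescaling.

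Of the type VI genes, Col6a1 (chr10:76171537-76188789) stood at 31.9 and 33.3 FPKM in the controls and 26.3 and 32.8 in the mutants. Col6a2 (chr10:76058501-76086149) stood at 30.3 and 31.9 FPKM in the controls and 23.2 and 32.6 in the mutants. The chains of both join with that of Col6a3 into the type VI filament. For Col6a1 and Col6a2 mutant 1 was the lowest library and mutant 2 lay within the control range for Col6a1 and just above it for Col6a2, and the log2 changes were -0.14 (95% interval -0.58 to 0.29) and -0.17 (-0.66 to 0.31). Col6a3 stood at 7.09 and 5.94 FPKM in the controls and 8.17 and 7.15 in the mutants, both mutants above both controls (log2 change 0.22, 95% interval -0.26 to 0.70). Col6a4, an alternative to the Col6a3 chain, stood at 2.39 and 2.81 FPKM in the controls and 2.51 and 2.79 in the mutants, with overlapping groups. Members of the same filament therefore lay on both sides of 0 on the deposited scale, and all 4 lay above 0 after rescaling (0.04, 0.0075, 0.39 and 0.18).

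Col12a1 and Col14a1 encode fibril-associated collagens, which sit on the surface of type I fibrils rather than forming fibrils themselves. Col12a1 (chr9:79446798-79566485) stood at 2.06 and 2.55 FPKM in the controls and 3.24 and 3.34 in the mutants, group means of 2.30 ± 0.342 (SD, n = 2) and 3.29 ± 0.0692 (SD, n = 2). Both mutants were above both controls, and the change was the largest upward one of the 25. The log2 change was 0.44 (SE 0.23, 95% interval -0.09 to 0.97, limma adjusted p = 0.825). Leaving out 1 library at a time gave 0.32 to 0.57. After rescaling it was 0.60, at an unadjusted limma p of 0.0306 and an adjusted p of 0.999. The authors' deposited table gives a log2 change of 0.68 for Col12a1, with an unadjusted p of 0.0234 and an adjusted p of 1.

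Col14a1 (chr15:55139305-55352358) stood at 4.86 and 4.94 FPKM in the controls and 4.15 and 3.50 in the mutants. Its groups did not overlap, and its direction was opposite to that of Col12a1 (log2 change -0.33, 95% interval -0.82 to 0.17). Col16a1, another fibril-associated collagen, stood at 4.17 and 4.13 FPKM in the controls and 2.97 and 3.67 in the mutants, again without overlap (log2 change -0.29). Col20a1, of the same family, stood at 1.87 and 1.39 FPKM in the controls and 1.51 and 1.16 in the mutants, with overlap. Of the 4 genes of this kind, Col12a1 lay above 0 and Col14a1, Col16a1 and Col20a1 lay below, and no difference between them was tested. After rescaling the changes of Col14a1, Col16a1 and Col20a1 were -0.16, -0.13 and -0.07.

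Type VIII collagen is a short-chain collagen of vessels and other tissues, and its chain genes gave the widest intervals. Col8a1 stood at 13.2 and 5.50 FPKM in the controls and 7.58 and 6.94 in the mutants (log2 change -0.23, 95% interval -1.04 to 0.59). Control 1 stood apart, and the other 3 libraries lay between 5.50 and 7.58 FPKM. Without control 1 the change of Col8a1 was 0.37, and without control 2 it was -0.82, at an unadjusted limma p of 0.0176 and an adjusted p of 0.34. Control 1 is also the library with the high B cell markers, and their part in the Col8a1 value was not tested. Col8a2 stood at 0.773 and 0.642 FPKM in the controls and 0.416 and 0.343 in the mutants, both mutants below both controls (log2 change -0.46, 95% interval -1.12 to 0.21). It rests on 48, 45, 12 and 22 implied fragments and passed the filter through the controls alone.

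Col23a1, the gene of a membrane-spanning collagen, stood at 2.24 and 2.58 FPKM in the controls and 1.52 and 2.15 in the mutants, both mutants below both controls (log2 change -0.33). Col28a1, the gene of a collagen described around peripheral nerve, stood at 1.17 and 1.30 FPKM in the controls and 0.995 and 0.896 in the mutants (log2 change -0.26). Its groups did not overlap either. The summed level of 8 enteric glia markers was 10.3 to 12.8 FPKM in the controls and 6.66 to 6.97 in the mutants. The part of glia in the Col28a1 value was not tested.

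Counted over the 25, both mutants lay below both controls for 8 genes (32.0%), against 35.1% of all tested genes. These were Col27a1, Col4a6, Col15a1, Col8a2, Col14a1, Col16a1, Col23a1 and Col28a1. Both mutants lay above both controls for 3 genes (12.0%), Col5a1, Col6a3 and Col12a1, against 3.39%. After rescaling, 3 genes (12.0%) were lower without overlap, Col4a6, Col8a2 and Col16a1, against 15.5% of all genes. There were 7 (28.0%) higher without overlap, Col3a1, Col4a1, Col4a2, Col5a1, Col6a3, Col6a4 and Col12a1, against 15.0%. Col4a6, Col8a2 and Col16a1 on the lower side and Col5a1, Col6a3 and Col12a1 on the higher side kept their separation on both scales, and none of these passed the test. Col8a2 passed the filter through the controls alone, so the filter itself favoured its place on the lower side.

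Transcript length differed along with these changes. Col12a1, Col6a3 and Col5a1 are the longest of the 25, at 11659, 9155 and 8402 bases, and they hold the 3 highest log2 changes. Over all tested genes the median log2 change was -0.16 for the 4716 genes under 2 kb, -0.17 for those of 4 to 6 kb and -0.05 for the 463 genes over 8 kb. In mutant 1 alone, set against the control mean, it went from -0.28 under 2 kb to -0.04 over 8 kb, while in mutant 2 it was -0.06 and -0.07. Taking the trend of level on length out of each library, an alternative chosen after seeing the data, also centres all genes near 0, so its values are set beside those after rescaling. The log2 change of Col12a1 was 0.60 after rescaling and 0.45 with the length trend removed, at an unadjusted limma p of 0.0756 and an adjusted p of 0.999. That of Col6a3 was 0.39 and 0.29, and that of Col5a1 was 0.28 and 0.21. All 3 were smaller with the trend removed and stayed above 0.

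**Figure D3:**
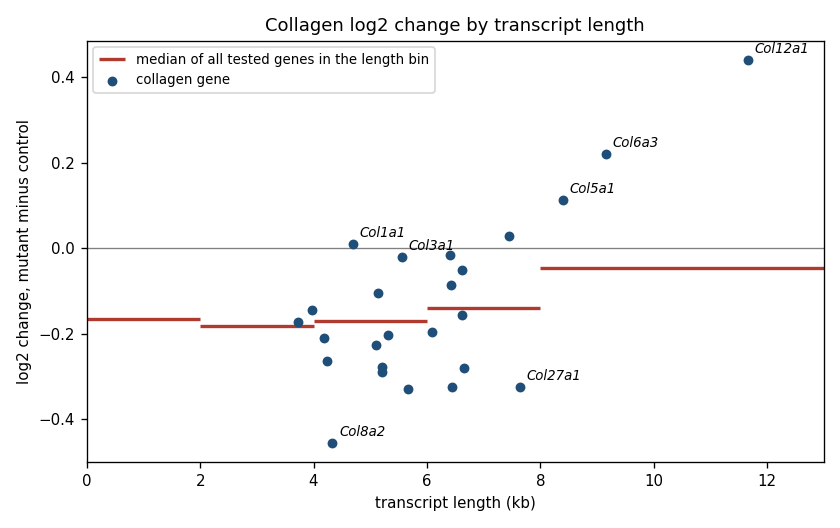
Log2 change of mutant against control for each tested collagen (points) by transcript length in kb, with the median of all tested genes in each length bin as a horizontal line. The collagens over 8 kb lie above 0, and the line for all genes over 8 kb (-0.05) lies above the lines of the shorter bins.

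Chain genes, of the same collagen except for Col1a1 over Col3a1, were compared as ratios of FPKM within each library. These ratios do not depend on the scaling between libraries. They can still carry the length trend of mutant 1 where the transcripts differ in length. Col1a1 over Col1a2 was 0.655 and 0.648 in the controls and 0.762 and 0.654 in the mutants, with mutant 1 apart from 3 like values. Col4a1 over Col4a2 was 1.53 and 1.63 in the controls and 1.68 and 1.56 in the mutants, with interleaved groups. Col6a1 over Col6a2 was 1.05 and 1.04 in the controls and 1.13 and 1.01 in the mutants, so these chain genes were at near-equal levels everywhere. Col6a3 over Col6a1 was lower, at 0.222 and 0.179 in the controls and 0.310 and 0.218 in the mutants. Col5a1 over Col5a2 was 0.667 and 0.629 in the controls and 0.885 and 0.709 in the mutants, without overlap. Of the ratios computed, mutant 1 was the highest library in all but Col8a1 over Col8a2, where mutant 2 was. The first-named gene has the shorter transcript in Col1a1 over Col1a2, Col1a1 over Col3a1 and Col4a5 over Col4a6. In the others it has the longer, as in Col6a3 over Col6a1 (9155 and 3976 bases) and Col5a1 over Col5a2 (8402 and 6615 bases). The part of length in the ratios was not tested.

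**Figure D4:**
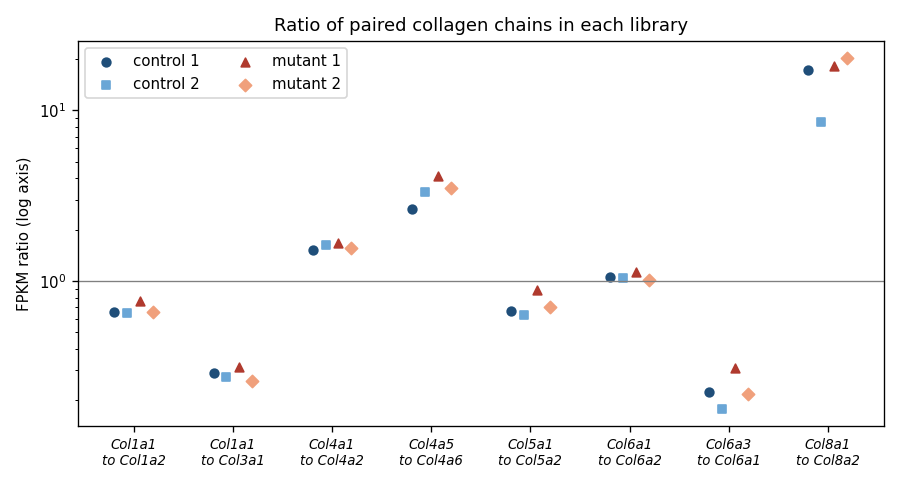
Ratio of FPKM between chain genes in each of the 4 libraries, on a log axis. The genes of a ratio belong to the same collagen, except in Col1a1 over Col3a1 (type I and type III). Most ratios lie close together across libraries, such as 1.01 to 1.13 for Col6a1 over Col6a2, and mutant 1 is the highest point for Col1a1 over Col1a2 and Col5a1 over Col5a2.

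Over the 8 ratios computed, the exact two-sided permutation p ran from 0.333 to 1, and 0.333 is the smallest that 2 samples against 2 allow. Ratios that reached it without overlap were Col5a1 over Col5a2, Col4a5 over Col4a6 and Col8a1 over Col8a2. The ratios of Col4a5 over Col4a6 and of Col8a1 over Col8a2 were added after the values were seen. Col4a5 over Col4a6 was 2.63 and 3.32 in the controls and 4.14 and 3.50 in the mutants. Col8a1 over Col8a2 was 17.1 and 8.56 in the controls and 18.2 and 20.2 in the mutants, and control 2 was the low value. This ratio rests on Col8a2, which passed the filter through the controls alone and had 12 and 22 implied fragments in the mutants. Col1a1 over Col3a1, which sets type I against type III, was 0.288 and 0.272 in the controls and 0.313 and 0.261 in the mutants, with the mutants on either side of the controls.

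Only 6 of the 43 collagens had more than 1 transcript in the files, which hold 50 collagen transcripts in all. For Col4a5 the transcript of 6491 bases made up 52.8% and 75.7% of the gene's FPKM in the controls and 36.6% and 41.3% in the mutants, and the transcript of 6319 bases made up the rest. The groups did not overlap, but the controls differed from each other by more than the nearer control differed from the mutants, and the gene total was alike. The split between transcripts that share most exons is an estimate, and no test was made of it. For Col18a1 the transcript of 5044 bases made up 68.6% and 70.6% in the controls and 74.3% and 72.4% in the mutants. For Col6a3 the transcript of 9022 bases made up 95.9% and 92.0% in the controls and 87.2% and 96.2% in the mutants, with overlap.

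The remaining 18 collagens had a mean under 0.5 FPKM and were not tested. They include collagens of cartilage (Col2a1, Col9a1, Col9a2, Col9a3, Col10a1, Col11a1 and Col11a2), of the skin's dermal and epidermal junction (Col7a1 and Col17a1), and the type IV chain genes Col4a3 and Col4a4. The highest single values were 0.701 FPKM for Col11a2 in control 1, where the other libraries stood at 0.215 to 0.262, and 0.556 for Col9a2 in control 2. Col10a1, the gene of hypertrophic cartilage, is listed at 0 in both controls and at 0.538 and 0.0661 FPKM in the mutants. Col6a6 is listed at 0 in both controls and at 0.204 and 0.00934 in the mutants. Col2a1, the main fibrillar collagen of cartilage, is listed at 0 except for 0.161 in mutant 1.

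Mutant 1 differed from the other libraries at this end of the scale. None of the 18 was at 0 in mutant 1, while 3, 4 and 3 were at 0 in control 1, control 2 and mutant 2. Their median level was 0.181 FPKM in mutant 1 and 0.0837 to 0.0963 in the others. Genes of the nose's odorant receptors stood higher in the same library. Their mean over 1091 genes was 0.125 FPKM in mutant 1 and 0.00487 to 0.00717 in the others, and 56.1% of them were at 0 in mutant 1 against 97.0% to 97.5%. Of the 8 cartilage and bone markers, 4 (Acan, Matn1, Matn3 and Ibsp) were at 0 in both controls and at 0.204 to 0.478 FPKM in mutant 1. The other 4 were above 0 in both controls, and mutant 1 lay within the control range for Bglap, Dmp1 and Comp and just above it for Hapln1 (1.33 and 0.692 FPKM in the controls, 1.39 in mutant 1). The part of this raised floor in the low collagen values of mutant 1 was not tested.

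The whole set of collagens summed to 359.9 and 337.6 FPKM in the controls and 322.9 and 336.7 in the mutants (exact two-sided permutation p = 0.333). As a share of all FPKM the sum was 0.0580% and 0.0559% in the controls and 0.0598% and 0.0570% in the mutants, means of 0.0569% ± 0.0015 and 0.0584% ± 0.0020 (SD, n = 2 each, exact two-sided permutation p = 0.667). Both mutants were below both controls for the sum, and the groups overlapped for the share. Col3a1 alone made up 28.9% and 29.0% of the collagen FPKM in the controls and 31.1% and 29.3% in the mutants. In bulk tissue, fewer cells of a type and less RNA per cell cannot be told apart.

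Cell types of the wall that make collagen were followed by marker lists. The 15 fibroblast markers, led by Dcn and Vim, summed to 563 to 652 FPKM in the controls and 431 to 542 in the mutants, and the 12 smooth muscle markers, led by Tagln and Acta2, to 1953 to 2187 and 1593 to 2011. On the deposited scale fibroblast markers were at 71.0% of the control mean in mutant 1 and 89.2% in mutant 2. The collagens were at 92.6% and 96.5%. Of the 15 fibroblast markers 11 lay below 0 (73.3%, against 82.6% of all genes), and 8 after rescaling (53.3%, against 49.1%). After rescaling 5 were lower without overlap (33.3%, against 15.5%) and 4 higher (26.7%, against 15.0%). Dcn (1838 bases) and Vim (1834 bases) have shorter transcripts than the tested collagens, and the part of length in these sums was not tested. The 10 endothelial markers, led by Pecam1 and Esam, summed to 40.1 to 41.7 FPKM in the controls and 29.7 to 30.8 in the mutants. Of these markers 9 lay below 0 on the deposited scale and 6 after rescaling. The 12 epithelial markers, led by Krt8 and Krt19, overlapped, at 7306 to 8999 and 7426 to 8501. Mesothelial markers, led by Krt7 and Upk1b, summed to 129 to 145 and 105 to 112, adipocyte markers, led by Pparg and Fabp4, to 163 to 202 and 115 to 184, and the cartilage and bone list, led by Hapln1 and Bglap, to 1.84 to 4.99 and 1.51 to 4.36. Krt7 makes up most of the mesothelial sum, which does not show that Msln stood at 1.71 and 2.10 FPKM in the controls and 0.525 and 0.642 in the mutants. Pparg and Fabp4 make up most of the adipocyte sum, which likewise does not show that Cfd stood at 7.26 and 16.1 FPKM in the controls and 1.20 and 23.1 in the mutants. Whether Krt7 and Pparg RNA came from mesothelium and fat in these pieces was not tested. Msln and Cfd were named after their values were seen. Dcn, Dpt, Fn1 and Lum of the fibroblast list also stand on the list of fibril assembly genes described next. The part of cell make-up in the collagen values was not tested.

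**Figure D5:**
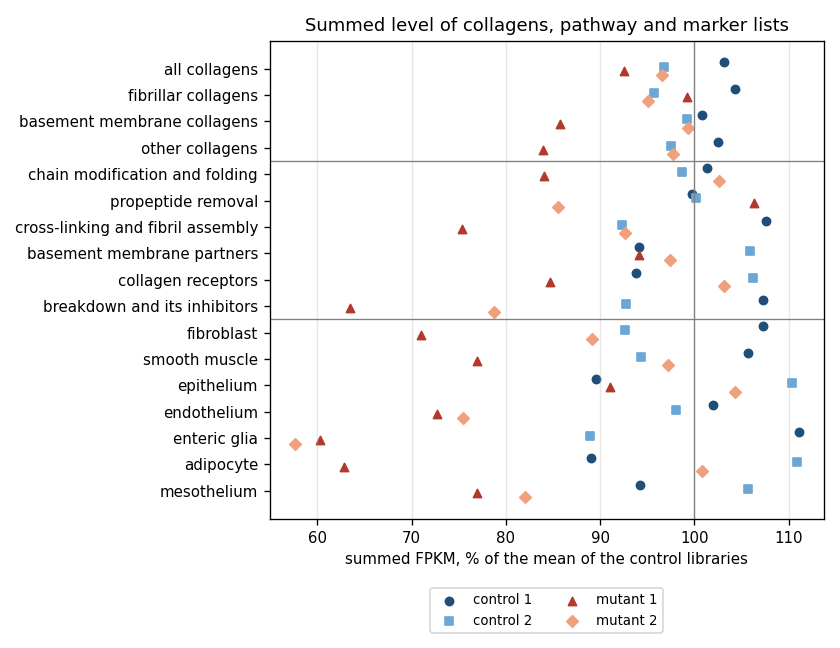
Summed FPKM of the collagen groups, of the lists of collagen handling genes and of cell type markers in each library, as a percent of the control mean. On the deposited scale, the collagen sum of mutant 1 is at 92.6% of the control mean and that of its fibroblast markers at 71.0%.

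Genes that build, join, bind and break down collagen were taken from 6 lists that hold 95 genes, of which 79 were tested. None passed the adjusted threshold. At an unadjusted limma p under 0.05 there were 4 (5.06%, against 4.82% of all genes), and 62 lay below 0 on the deposited scale, 36 after rescaling. The lists differed among themselves: 3 of these 4 genes belong to the breakdown list.

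Of the 20 tested genes that modify and fold the chains, 20 lay below 0 on the deposited scale and 11 after rescaling, with a median of -0.02 relative to all genes. P4hb, a subunit of the prolyl hydroxylase that stabilizes the helix, stood at 396 and 414 FPKM in the controls and 366 and 428 in the mutants. Ppib, a prolyl isomerase that helps the helix fold, stood at 394 and 349.6 FPKM in the controls and 296 and 368 in the mutants. Leprel1, a prolyl hydroxylase of the collagen chains, had the smallest p of the list (log2 change -0.43, limma adjusted p = 0.825) at 2.54 and 2.83 FPKM in the controls and 1.82 and 1.89 in the mutants, without overlap.

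Of the 6 tested genes of propeptide removal 5 lay below 0, 4 after rescaling. The highest were the meprin genes, Mep1b at 161 and 136 FPKM in the controls and 189 and 127 in the mutants and Mep1a at 101 and 134 FPKM in the controls and 106 and 102 in the mutants, proteases that the gut epithelium also makes in bulk. Pcolce2, an enhancer of propeptide cleavage, stood at 3.33 and 3.66 FPKM in the controls and 2.33 and 2.60 in the mutants (log2 change -0.43). Of the 16 genes of cross-linking and fibril assembly 12 lay below 0, 8 after rescaling. Dcn, the fibril-binding proteoglycan decorin, stood at 194 and 159 FPKM in the controls and 114 and 136 in the mutants, both mutants below both controls (log2 change -0.49). Sparc, a collagen-binding matrix protein, stood at 134 and 130.0 FPKM in the controls and 116 and 129 in the mutants (log2 change -0.11).

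Of the 14 tested basement membrane partners 8 lay below 0 on the deposited scale and 2 after rescaling, and their median was 0.15 above that of all genes. Some have long transcripts, and the part of length in this median was not tested. Hspg2 (14177 bases) stood at 5.35 and 5.59 FPKM in the controls and 8.46 and 5.61 in the mutants. Lama5 (11388 bases) went the other way, at 2.02 and 1.88 FPKM in the controls and 1.83 and 1.65 in the mutants. Dag1, the laminin receptor dystroglycan, stood at 46.7 and 54.7 FPKM in the controls and 40.8 and 52.4 in the mutants, and Lamb3, a laminin chain of epithelial basement membranes with the smallest p of the list, at 23.6 and 27.2 FPKM in the controls and 22.0 and 19.8 in the mutants. Of the 9 tested collagen receptors 7 lay below 0, 3 after rescaling. Itgb1, the beta chain shared by the collagen-binding integrins, stood at 122 and 146 FPKM in the controls and 111 and 144 in the mutants. The discoidin domain receptors bind collagen directly, and Ddr1 stood at 37.8 and 36.8 FPKM in the controls and 30.0 and 39.0 in the mutants and Ddr2 at 7.49 and 5.62 FPKM in the controls and 4.53 and 5.37 in the mutants, for Ddr2 without overlap.

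Of the 14 tested genes of collagen breakdown and its inhibitors 10 lay below 0, 8 after rescaling, with a median of -0.12 relative to all genes. At an unadjusted p under 0.05 there were 3 of 14 (21.4%, against 4.82% of all genes), and both mutants lay below both controls for 7 of 14 (against 35.1%), or for 5 after rescaling (35.7%, against 15.5%). The list summed to 185.6 to 214.6 FPKM in the controls and 127.0 to 157.6 in the mutants. Mmp7, a matrix metalloproteinase that epithelial cells make, stood at 68.0 and 44.5 FPKM in the controls and 29.3 and 31.7 in the mutants (log2 change -0.84). Timp2, an inhibitor of metalloproteinases, stood at 37.6 and 34.7 FPKM in the controls and 21.2 and 27.9 in the mutants (log2 change -0.56). Mmp15, a membrane-bound metalloproteinase named after its values were seen, stood at 28.7 and 29.7 FPKM in the controls and 17.0 and 19.8 in the mutants (log2 change -0.66). Mmp7, Timp2 and Mmp15, with Dcn, are the 4 at an unadjusted p under 0.05. Each of the 4 was lower in both mutants than in both controls without passing the adjusted threshold (limma adjusted p = 0.825 for each).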

How the data were processed

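RNA of the colon pieces was made into Illumina TruSeq libraries and sequenced on a HiSeq2000, per the labels' protocols. Per the submitters' processing notes, the build was mm9 and the tools included DESeq, Cufflinks, TopHat and bcl2fastq 1.8.4. The authors deposited FPKM per gene and per RefSeq transcript for each library. They also deposited read coverage (a signal) per transcript, which served for the relative depth and was not used as a measure of level. The authors' deposited comparison gives mean normalized counts (a signal) per group, the fold ratio, its log2, and p-values with adjusted values. How mapped reads were assigned to genes, and with which strand setting, is not given in the sources used here.

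From these files, 306 of 23699 gene rows whose status was not OK in some library were left out, and rows of 1 symbol were summed. Log2(FPKM + 0.5) of genes averaging 0.5 FPKM or more was fitted with limma 3.58.1 (R 4.3.3, trend, 2 residual degrees of freedom) and p-values were adjusted by Benjamini-Hochberg over all 13997 genes at 0.05. Nkx2-2, under the filter, was tested in a separate fit with it added. The fit was tested on simulated data. No count model was used, since FPKM are not counts. Fragment numbers implied by the deposited intervals are estimates. For genes with a single transcript and few fragments, 86.9% to 87.8% of them came out within 0.05 of a whole number. Intervals are at 95%.

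The members and lists were chosen with earlier results of these data known. Named are all collagens with a mean of at least 0.5 FPKM, of each pathway list the genes past the threshold, the 2 highest and the smallest p, of each marker list its sum and the 2 highest, and Nkx2-2. Alternatives covered pseudocount, filter, scaling, variance model, replicate block, class definition and leaving out each library. Start positions come from the files, strands and exons from GENCODE vM1, and sequences from mm9. For 41 of 43 collagens the start lay within 100 bases of an annotated transcript start.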

Additional observations from a re-analysis of the deposited data

How the results depend on the processing

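No collagen passed the adjusted threshold under any alternative run or in the authors' deposited table, while the count over all genes ran from 0 without a filter to 195 with the replicate block and 362 without control 2. At an unadjusted limma p under 0.05, single collagens appeared without a filter (Col8a2), under rescaling and quantile normalization (Col12a1, also at p = 0.0234 in the authors' deposited table), without control 2 (Col8a1) and without mutant 2 (Col6a2). The replicate numbers were not shown to pair the mice (correlation of deviations -0.0022 across 13997 genes), and with the replicate block 0 collagens passed (smallest adjusted p = 0.956). Relative to all genes, the median of all collagens was 0.065 at a mean of at least 2 FPKM. The basement membrane median, 0.023 as reported, was -0.014 without a filter, 0.084 at a mean of at least 2 FPKM, 0.049 with quantile normalization, 0.046 in the authors' deposited table and 0.098 with Col15a1 and Col18a1 counted as other. Leaving out 1 library at a time gave 0.015 to 0.092 for all collagens, -0.068 to 0.21 for fibrillar, -0.011 to 0.059 for basement membrane and -0.079 to 0.064 for other collagens.

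The sign turned for 10 of 25 log2 changes under a scaling, length or table alternative. Under median ratio rescaling the values were 0.077 (Col1a2), 0.16 (Col3a1), 0.13 (Col4a1), 0.091 (Col4a2), 0.15 (Col4a5), 0.016 (Col5a2), 0.037 (Col6a1) and 0.0075 (Col6a2). Under quantile normalization they were 0.060 (Col1a2), 0.12 (Col3a1), 0.12 (Col4a1), 0.096 (Col4a2), 0.20 (Col4a5), 0.030 (Col5a2), 0.018 (Col6a1) and 0.0057 (Col15a1). With the length trend removed, an alternative chosen after seeing the data, they were 0.060 (Col1a2), 0.14 (Col3a1), 0.082 (Col4a1), 0.051 (Col4a2), 0.12 (Col4a5), 0.036 (Col6a1) and 0.0085 (Col6a2). The authors' deposited table gives 0.056 (Col1a2), 0.13 (Col3a1), 0.12 (Col4a1), 0.070 (Col4a2), 0.13 (Col4a5), 0.0044 (Col5a2), 0.093 (Col5a3) and 0.020 (Col6a1). Leaving out 1 library at a time gave ranges that cross 0 for Col1a1 (-0.13 to 0.15), Col3a1 (-0.063 to 0.024), Col4a2 (-0.19 to 0.015), Col4a5 (-0.12 to 0.086), Col5a2 (-0.32 to 0.0042), Col5a3 (-0.44 to 0.051), Col6a1 (-0.30 to 0.013), Col6a2 (-0.41 to 0.067), Col6a4 (-0.070 to 0.13) and Col8a1 (-0.82 to 0.37). Where a fit left 1 sample in a group, that sample was assumed to vary like the other group. The cause was not tested. FPKM without counts and 2 samples a group limit precision, with a largest interval bound of 1.12 on the log2 scale, and mutant 1 has the lowest depth.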
